A study of Mus musculus with 6 samples.

Results

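The 10 genes described here, Ddit4, Fkbp5, Tsc22d3, Klf9, Zbtb16, Errfi1, Pdk4, Sult1a1, Plin4 and Nfkbia, are well-known genes that glucocorticoids induce through the glucocorticoid receptor, and they were measured in the cerebella of mice fed a low-manganese (low-Mn) or a normal-manganese (normal-Mn) diet. They were taken by name from 53715 mouse genes, and all 10 were among the 16123 genes with enough counts to be tested. The list was selected on diet differences in read counts already known from these same 6 libraries, together with what is known of glucocorticoid responses, so the levels of its members on the 2 diets are given as a description, without a test. The study asked how the cerebellar transcriptome differs when the diet lacks Mn. The low-Mn group was 3 male C57BL/6 mice on a diet with 0 ppm Mn, and the normal-Mn group was 3 male C57BL/6 mice on a diet with 35 ppm Mn, each for 2 weeks. The labels call the mice adult, while the methods say they were bought at 4 weeks of age. One library was made from the polyadenylated RNA of each cerebellum. The labels name no transgene, deletion or hormone treatment in either group. The methods speak of biological replicates and a legend of technical triplicates, so p-values measure only the spread between these libraries, which may be technical.

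Glucocorticoids are steroid hormones of the adrenal cortex, released in a daily rhythm and during stress. They enter cells and bind the glucocorticoid receptor, a transcription factor that is held in the cytoplasm by chaperones until hormone arrives, and that then moves to the nucleus and binds DNA at glucocorticoid response elements, often far from the genes it controls. Many of its induced genes act as brakes: on the receptor itself, on growth factor and mTOR signalling, on inflammatory transcription, or on glucose use.

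Library totals ran from 14548336 to 17124327 expected counts on the low-Mn diet and from 18446701 to 21277469 on the normal-Mn diet, so every low-Mn library was shallower than every normal-Mn one. The lowest count of any member in any library was 100. Levels are given as CPM (counts scaled to a common library size) with factors from the trimmed mean of M-values (TMM), and between genes as CPM per kb of exon. Markers of granule neurons and Purkinje neurons were present in all 6 libraries, with sums of 6985 to 7150 CPM (low-Mn) and 6792 to 7273 CPM (normal-Mn) for granule neurons, and 12157 to 12357 CPM (low-Mn) and 11905 to 12342 CPM (normal-Mn) for Purkinje neurons. In the fit across all genes 96 of 16123 were called at an adjusted p under 0.05 (0.595%), of which 67 (0.416%) were higher on the low-Mn diet and 29 lower.

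For 9 of the 10 members the RefSeq promoter table (GRCm38.p6) held windows of 300 bases, from 250 bases before to 50 after a transcription start. There were 12 windows, since Tsc22d3 had 3 and Errfi1 had 2. Zbtb16 had no entry. The 4 printed here are those of Ddit4, Errfi1, Nfkbia and Sult1a1. They were chosen because Ddit4 and Nfkbia had the largest positive diet differences of the members, Errfi1 was another member with separate diets, and Sult1a1 alone held the half-site of the receptor in both orientations. Each reads 5′ to 3′ along the gene, and capitals mark a match to one of 6 motifs. The motifs were picked after the files were seen and searched on both strands, so a match on the opposite strand appears as its reverse complement. The Ddit4 window is chr10:59951721-59952020, minus strand, the Errfi1 window is chr4:150854820-150855119, plus strand, the Nfkbia window is chr12:55492598-55492897, minus strand, and the Sult1a1 window is chr7:126676369-126676668, minus strand.
Ddit4: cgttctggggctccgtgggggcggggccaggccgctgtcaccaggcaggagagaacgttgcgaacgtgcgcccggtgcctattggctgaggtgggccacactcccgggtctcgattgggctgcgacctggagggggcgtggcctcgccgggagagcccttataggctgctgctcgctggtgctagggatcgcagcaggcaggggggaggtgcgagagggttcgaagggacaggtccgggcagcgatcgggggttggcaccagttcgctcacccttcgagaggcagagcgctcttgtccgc
Errfi1: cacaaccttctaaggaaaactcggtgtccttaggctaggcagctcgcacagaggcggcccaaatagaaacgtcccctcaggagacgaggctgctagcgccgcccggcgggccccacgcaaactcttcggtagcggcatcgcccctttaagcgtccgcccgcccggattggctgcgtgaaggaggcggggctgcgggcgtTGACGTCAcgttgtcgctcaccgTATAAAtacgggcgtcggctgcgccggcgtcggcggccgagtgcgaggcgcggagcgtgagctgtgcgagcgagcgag
Nfkbia: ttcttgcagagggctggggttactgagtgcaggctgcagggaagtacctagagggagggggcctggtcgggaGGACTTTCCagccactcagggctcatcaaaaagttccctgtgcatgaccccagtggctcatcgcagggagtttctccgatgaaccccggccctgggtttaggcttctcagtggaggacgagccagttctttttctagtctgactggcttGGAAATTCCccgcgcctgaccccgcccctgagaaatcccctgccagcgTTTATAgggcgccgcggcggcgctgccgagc
Sult1a1: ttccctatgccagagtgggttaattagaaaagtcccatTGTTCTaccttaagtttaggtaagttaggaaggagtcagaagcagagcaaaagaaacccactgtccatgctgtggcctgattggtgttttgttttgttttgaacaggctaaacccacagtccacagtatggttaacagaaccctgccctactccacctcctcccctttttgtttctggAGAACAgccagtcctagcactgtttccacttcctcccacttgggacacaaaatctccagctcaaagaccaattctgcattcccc

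The half-site of the receptor, AGAACA, lay in 2 of the 12 windows, those of Sult1a1 and of 1 Tsc22d3 start, and in 19.0% of all 32851 windows in the table. In Sult1a1 it began 212 bases upstream on the opposite strand and 34 bases upstream on the gene's own strand. The core of the full response element, ACANNNTGT, was in 0 of the 12 windows and in 6.85% of all windows. The NF-kappaB motif GGANTTTCC lay in 1 window, that of Nfkbia, where it began 178 bases upstream and again, on the opposite strand, 29 bases upstream. Of all windows 1.25% held it. The printed Errfi1 window held the cyclic AMP response element TGACGTCA 51 bases upstream (1.79% of all windows) and a TATA box, TATAAA, 28 bases upstream. The other Errfi1 window held 0 matches to the 6 motifs. The TATA box lay in 13.6% of all windows and in 2 of the 12, where that of Nfkbia was on the opposite strand, 20 bases past the start. The E-box CACGTG lay in the Fkbp5 window, 169 bases upstream (7.15% of all windows). None of the 6 motifs overlapped another in these windows, and the Ddit4 window held none of them. These matches are letters in a short window, and binding was not measured.

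The windows differed in base composition. The Errfi1 window printed above had 41 CpG dinucleotides, more than 96.5% of all windows, and the other Errfi1 window had 2. That of Fkbp5 had 32. Those of Klf9 and Ddit4 had 28 and 26, against a median of 7 over all windows. The Sult1a1 window had 0, at a GC content of 46.3%, against a median of 52.7% over all windows. The window of Ddit4 had a GC content of 69.0%.

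Among the members, Ddit4, Nfkbia, Errfi1 and Klf9 were higher in every low-Mn library than in any normal-Mn library. Zbtb16 was lower in every low-Mn library, and the other 5, among them Fkbp5 and Tsc22d3, overlapped between diets. Diets that do not overlap were found for 17.1% of all genes tested, 8.79% with low-Mn above and 8.32% with low-Mn below. The edgeR fit called 1 of the 10, Ddit4, against 0.595% of all genes, and DESeq2 called 2, Ddit4 and Klf9, against 1.92% of the 7144 genes to which it gave an adjusted p. It gave one to 4 of the 10. As the members were picked with the same contrast in view, nothing is read from these counts. The log2 fold changes (of low-Mn relative to normal-Mn) ran from -0.56 to 0.55, with 7 positive and 3 negative and a median of 0.11, against a median of 0.00 over all genes tested.

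Ddit4 (chr10:59949669-59951834, minus strand, mm10) encodes REDD1, an inhibitor of mTORC1 that glucocorticoids, hypoxia and energy stress induce. It had 81.4, 81.0 and 67.0 CPM in low-Mn cerebella, against 53.4, 53.1 and 49.97 CPM in normal-Mn cerebella. Low-Mn replicate 3 stood below the other two low-Mn libraries and still above all 3 normal-Mn libraries. The means were 76.4 ± 8.19 CPM in low-Mn and 52.1 ± 1.89 CPM in normal-Mn cerebella (SD, n = 3 each). Its log2 fold change of 0.55 (SE 0.0687) lay between 0.50 and 0.64 with any 1 library left out. Averaged over all 6 libraries, it was the most abundant of the 10 per kb of exon, at 36.6 CPM, though not in every normal-Mn library.

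Errfi1 (chr4:150853919-150868892, plus strand) encodes MIG6, a feedback inhibitor of the EGF receptor. It had 49.7, 46.9 and 50.5 CPM in low-Mn and 41.3, 44.5 and 42.2 CPM in normal-Mn cerebella. The gap between the diets, from normal-Mn replicate 2 to low-Mn replicate 2, was narrow, and within each diet the libraries lay close together. The log2 fold change was 0.20 (SE 0.0633), and its within-diet SD of 0.0556 on the log2 scale was 1.11 times that expected from counting error alone.

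Klf9 (chr19:23141226-23168134, plus strand) encodes a Krüppel-like zinc finger repressor that glucocorticoids and thyroid hormone induce in neurons. It had 170.4, 174 and 173 CPM in low-Mn cerebella, against 145, 159 and 151 CPM in normal-Mn cerebella. The 3 low-Mn libraries were nearly level, and the 3 normal-Mn libraries were all below them. Its log2 fold change was 0.19 (SE 0.0470), between 0.15 and 0.22 with any 1 library left out, and its within-diet SD of 0.0496 was the smallest of the 10.

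Zbtb16 (chr9:48654297-48836222, minus strand) encodes PLZF, a BTB zinc finger repressor. It was the member that ran lowest on the low-Mn diet, with 8.54, 13.5 and 13.8 CPM in low-Mn cerebella, against 14.98, 20.3 and 17.1 CPM in normal-Mn cerebella. Low-Mn replicate 1 stood well below all other libraries, and low-Mn replicates 2 and 3 were only just below normal-Mn replicate 1. The log2 fold change was -0.56 (SE 0.151), and -0.36 without low-Mn replicate 1. Its within-diet SD of 0.314 was the largest of the 10 and 3.59 times the counting error.

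Fkbp5 (chr17:28399094-28517527, minus strand) encodes FKBP51, the co-chaperone of HSP90 that lowers the receptor's affinity for hormone and is itself induced by the receptor. It had 13.3, 13.2 and 13.1 CPM in low-Mn and 15.5, 16.1 and 12.2 CPM in normal-Mn cerebella. The low-Mn libraries were level, while normal-Mn replicate 3 lay below them and the other two normal-Mn libraries above. The means were 13.2 ± 0.0574 CPM (low-Mn) and 14.6 ± 2.07 CPM (normal-Mn), with a log2 fold change of -0.15 (SE 0.118) that was -0.08 without normal-Mn replicate 2 and -0.26 without normal-Mn replicate 3.

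Nfkbia and Tsc22d3 act on inflammatory transcription. Nfkbia (chr12:55489410-55492647, minus strand) encodes IkappaB-alpha, which holds NF-kappaB in the cytoplasm and is induced both by NF-kappaB and by glucocorticoids. It had 24.6, 23.5 and 20.8 CPM in low-Mn cerebella, against 16.1, 20.5 and 15.5 CPM in normal-Mn cerebella. The lowest low-Mn library, replicate 3, was only just above normal-Mn replicate 2, and the other two normal-Mn libraries were well below. The log2 fold change was 0.40 (SE 0.109), between 0.33 and 0.54 with any 1 library left out.

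The other, Tsc22d3 (chrX:140539528-140600659, minus strand), encodes GILZ, a leucine zipper protein that restrains NF-kappaB and AP-1. It had 136, 128 and 121 CPM in low-Mn and 120.1, 125 and 119 CPM in normal-Mn cerebella. The diets overlapped, with low-Mn replicate 3 below normal-Mn replicate 2. The log2 fold change was 0.08 (SE 0.0507), and 0.04 without low-Mn replicate 1.

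Pdk4, Sult1a1 and Plin4 act in metabolism, and all overlapped between the diets. Pdk4 (chr6:5483351-5496309, minus strand) encodes pyruvate dehydrogenase kinase 4, which slows entry of pyruvate into the citric acid cycle. It had 10.5, 7.49 and 8.45 CPM in low-Mn and 10.2, 10.9 and 8.62 CPM in normal-Mn cerebella, with a log2 fold change of -0.17 (SE 0.148), which was -0.07 without low-Mn replicate 2 and -0.31 without low-Mn replicate 1. Low-Mn replicate 1 lay among the normal-Mn libraries, and low-Mn replicates 2 and 3 just below them.

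Sult1a1 (chr7:126672865-126676432, minus strand) encodes a phenol sulfotransferase and was the least counted member. It had 7.61, 6.94 and 6.17 CPM in low-Mn and 6.88, 6.19 and 5.74 CPM in normal-Mn cerebella, with a log2 fold change of 0.14 (SE 0.162). The libraries of the diets were interleaved. Its exons overlapped those of an opposite-strand neighbour, Sgf29, over 4.05% of their length, and 7.36% of its stretches of 50 bases occurred in another gene, the largest shares of both kinds among the members.

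Plin4 (chr17:56100591-56109803, minus strand) encodes perilipin 4, a lipid droplet coat protein. It had 6.57, 10.9 and 8.76 CPM in low-Mn and 8.19, 8.28 and 8.62 CPM in normal-Mn cerebella. The normal-Mn libraries were level, and the low-Mn libraries lay both below and above them. The log2 fold change was 0.06 (SE 0.163), and leaving out low-Mn replicate 2 turned it to -0.13.

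**Figure D1:**
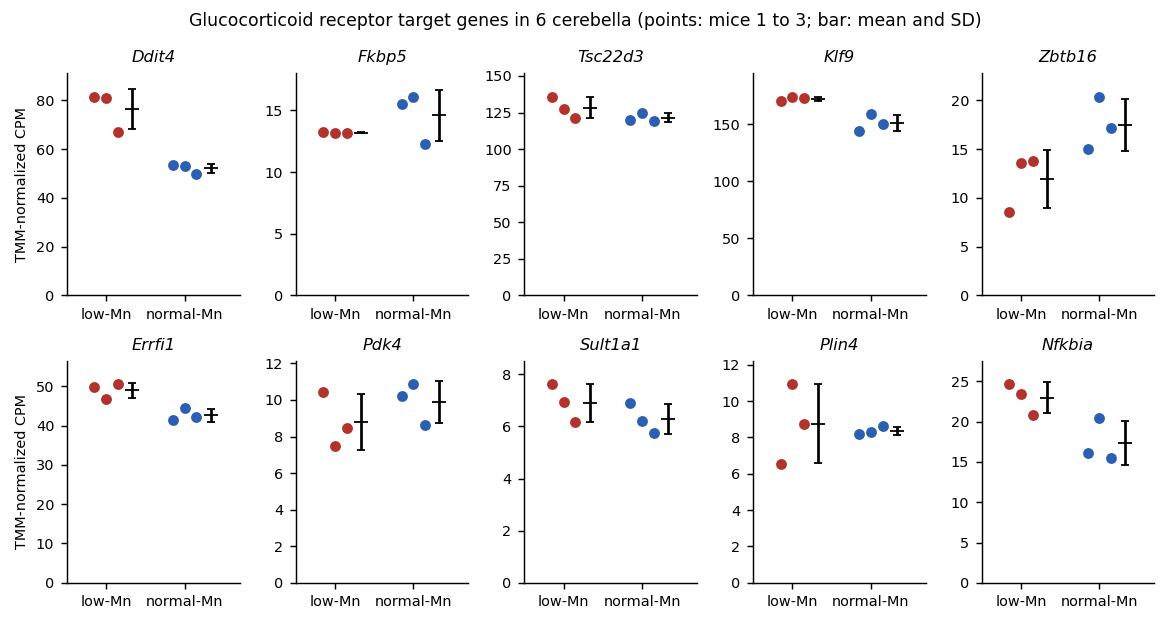
TMM-normalized CPM (vertical axes, each starting at 0) of the 10 target genes in each cerebellum, low-Mn mice in red and normal-Mn mice in blue, with replicates 1 to 3 from left to right and a bar for the mean and SD. The diets are separate for Ddit4, Klf9, Errfi1 and Nfkbia, with low-Mn above, and for Zbtb16, with low-Mn below, and overlap for the other 5.

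In order of level per kb of exon over all 6 libraries, Ddit4 (36.6 CPM per kb) stood first, then Klf9 (33.6) and Tsc22d3 (28.7), then Errfi1 (12.8) and Nfkbia (12.5), then Sult1a1 (4.37), Zbtb16 (2.78) and Pdk4 (2.66), and last Plin4 (1.48) and Fkbp5 (1.47). Neighbours did not keep this order in every library. Ddit4 was above Klf9 in 4 of 6 libraries, Zbtb16 above Pdk4 in 4, and Errfi1 above Nfkbia and Plin4 above Fkbp5 in 3 each. None of these 4 pairs thus kept a single order. Ddit4 was above Klf9 in every low-Mn library and in normal-Mn replicate 1, and below it in normal-Mn replicates 2 and 3. The other neighbours kept their order in all 6. The summed level of the 10 genes was 483 to 508 CPM in low-Mn and 429.9 to 464 CPM in normal-Mn libraries. The median over the 10 of the log2 level less the normal-Mn mean was 0.17, 0.14 and 0.03 in low-Mn replicates 1, 2 and 3, and -0.02, 0.07 and -0.04 in normal-Mn replicates 1, 2 and 3. Low-Mn replicate 3 was thus below normal-Mn replicate 2 by this measure. In bulk tissue, fewer cells of a type and less RNA per cell cannot be told apart.

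**Figure D2:**
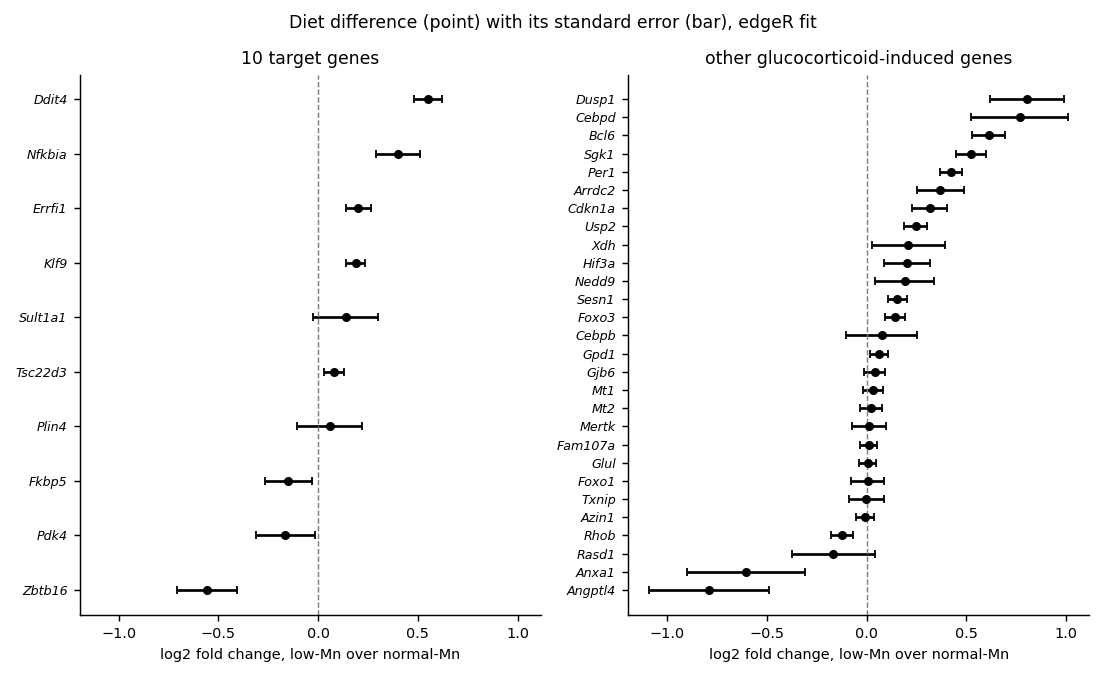
Log2 fold change of low-Mn relative to normal-Mn mice (horizontal axes) for each target gene (left) and of each tested gene of the list of other glucocorticoid-induced genes (right), with points for the edgeR estimate and bars for its standard error. The target genes run from 0.55 for Ddit4 to -0.56 for Zbtb16, and 22 of the 28 other genes lie above 0.

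The spread between mice of the same diet was taken with the diet means removed. Whether it bore on the choice of the list is not known. Over the 16123 tested genes this SD of log2 CPM falls as counts rise, so ranks are given among the genes with a mean of at least 100 counts, which all 10 members had. The median member ranked above 80.5% of those genes and above 59.9% of all tested genes, and 7 of the 10 were above the median of all. Zbtb16 ranked above 98.8%, Plin4 above 97.3% and Pdk4 above 93.5% of genes with at least 100 counts. At the other end Klf9 ranked above 17.2%, Errfi1 above 22.4% and Tsc22d3 above 28.7% of them. The members that varied least were also among the most counted, and Plin4, Pdk4 and Sult1a1 had the fewest counts. The cut at 100 counts does not remove the dependence on counts. Sult1a1 ranked above 79.0% of those genes with an SD near counting error, so a high rank alone does not show an unusual spread. Against counting error alone, the SD was 2.79 times as large for Ddit4, 2.05 times for Tsc22d3, 1.66 times for Fkbp5 and 1.06 times for Sult1a1. What makes mice of one diet differ was not tested.

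**Figure D3:**
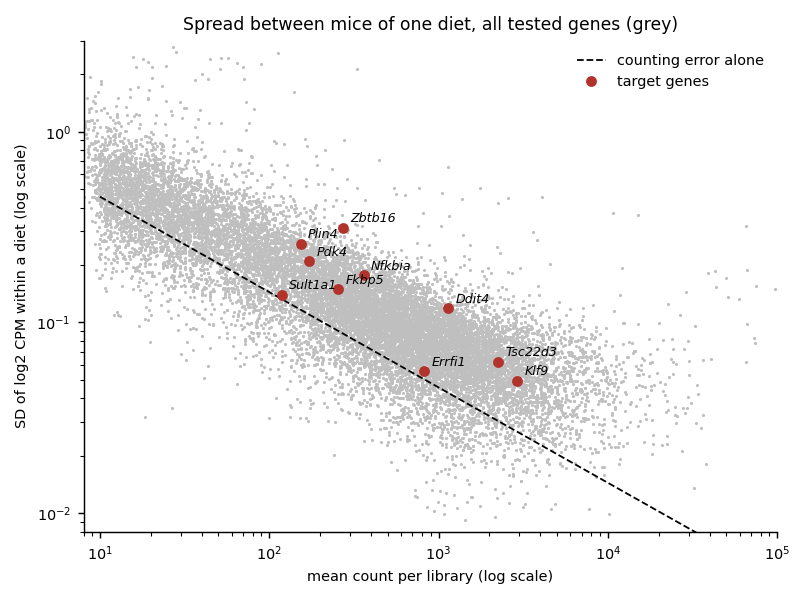
SD of log2 CPM between mice of the same diet (vertical axis, log scale) against the mean count per library (horizontal axis, log scale) for all 16123 tested genes (grey) and the 10 target genes (red), with a dashed line for counting error alone. Zbtb16 (SD 0.314) and Plin4 (SD 0.258) lie toward the top of the genes with like counts, and Errfi1 (SD 0.0556) and Sult1a1 (SD 0.140) lie near the line.

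The members did not vary as a block within the diets. Over the 45 pairs of members, the correlation of their deviations from the diet mean across the 6 libraries had a median of 0.24, with 29 pairs positive, and ran from 0.83 for Ddit4 and Sult1a1 to -0.86 for Pdk4 and Plin4. Ddit4 and Tsc22d3 had 0.82 and Zbtb16 and Sult1a1 -0.73. These values rest on 6 libraries with 2 diet means removed and share each library's depth and scaling, and they are given as a description. The gene whose deviations were most like the mean of the 10, among 10423 genes with at least 10 CPM, was Chsy1 (r = 0.999 over 6 libraries), followed by Pwwp2a (0.996), Tmem41b (0.996), Rdh11 (0.992) and Cox20 (0.992). These 5 were picked as the highest of all those values, and nothing is read from them about function or control. Low-Mn replicate 1 was the highest library for 4 members and normal-Mn replicate 2 for 3, and normal-Mn replicate 3 was the lowest for 5.

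The receptor itself was nearly level. Nr3c1, the glucocorticoid receptor gene, had 118.6, 115.4 and 121.1 CPM in low-Mn and 119.4, 117.4 and 128.2 CPM in normal-Mn cerebella. The diets overlapped, and the log2 fold change was -0.04 (edgeR adjusted p = 0.819). Nr3c2, the mineralocorticoid receptor gene, which binds the same hormone, had 28.8, 21.7 and 24.9 CPM in low-Mn and 24.9, 27.0 and 25.3 CPM in normal-Mn cerebella, also overlapping. Hsd11b1, which regenerates active glucocorticoid inside cells, averaged 61.4 ± 1.38 CPM in low-Mn and 67.6 ± 1.10 CPM in normal-Mn cerebella (log2 fold change -0.14, adjusted p = 0.297 with edgeR). Its low-Mn libraries were all below its normal-Mn libraries, but it did not pass the test. Of the 16 genes listed for the receptor, its chaperones, its cofactors and steroid enzymes, 15 were tested and 0 were called by edgeR, DESeq2 or limma-voom, and 2 had an unadjusted edgeR p under 0.05, a share close to the 12.1% of all tested genes (1954 of 16123). The smallest p was that of the coactivator Ep300, with a log2 fold change of 0.19 (adjusted p = 0.143 with edgeR). The median over the 15 was -0.01.

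A second list held 32 other genes known to be induced by glucocorticoids, of which 28 were tested. It too was written with earlier results of these libraries known, so nothing is read from its counts. By edgeR 3 of the 28 were called, against 0.595% of all tested genes, all higher on the low-Mn diet and 0 lower. By limma-voom 3 of the 28 were called, against 63 of all 16123 tested genes. DESeq2 gave an adjusted p to 15 of the 28 and called 4, with Usp2 added, against 1.92% of 7144 genes. At an unadjusted edgeR p under 0.05 there were 12, against 12.1% of all tested genes. Per1, a clock gene with a response element for the receptor, had 105.9, 110.7 and 99.9 CPM in low-Mn and 78.9, 76.2 and 81.0 CPM in normal-Mn cerebella (log2 fold change 0.42, SE 0.0532, adjusted p = 5.5e-04 with edgeR). Bcl6, a transcriptional repressor, had 84.8, 68.9 and 70.2 CPM in low-Mn and 43.5, 55.9 and 47.4 CPM in normal-Mn cerebella (log2 fold change 0.61, SE 0.0846, adjusted p = 0.0015 with edgeR). In both genes the lowest low-Mn library was well above the highest normal-Mn library.

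Sgk1, a kinase that glucocorticoids and mineralocorticoids induce, had 105.1, 93.9 and 107.4 CPM in low-Mn and 61.9, 81.7 and 69.6 CPM in normal-Mn cerebella (log2 fold change 0.52, SE 0.0765, adjusted p = 0.0018 with edgeR). All 3 genes passed in every alternative that was run. The 25 others included genes with larger fold changes that did not pass, such as Dusp1, which encodes a phosphatase of MAP kinases (0.80, adjusted p = 0.053 with edgeR). Cebpd, a transcription factor, had 0.77 (adjusted p = 0.19 with edgeR) and Usp2, a deubiquitinase, 0.25 (adjusted p = 0.051 with edgeR). Of the 28, 10 had every low-Mn library above every normal-Mn library, against 8.79% of all genes, and 0 lay wholly below. Their median log2 fold change was 0.07. Angptl4, a lipoprotein lipase inhibitor (-0.79), and Anxa1 (-0.60) had the lowest values, and neither passed (adjusted p = 0.28 and 0.42 with edgeR). The metallothioneins Mt1 and Mt2, which both zinc and glucocorticoids induce, had log2 fold changes of 0.03 and 0.02. The members of this list were also chosen with earlier results of these libraries known.

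The other genes of the NF-kappaB system that Nfkbia restrains were read from a list of their own. Of 14 listed genes 13 were tested and 0 were called by edgeR, DESeq2 or limma-voom, with 1 at an unadjusted edgeR p under 0.05, against 12.1% of all tested genes. That gene was Chuk, which encodes the kinase IKK-alpha (log2 fold change 0.26, adjusted p = 0.125 with edgeR, diets overlapping). Of 12 inflammatory genes that glucocorticoids repress, 5 were counted well enough to be tested, 0 were called by any of the 3 tools, and 1 had an unadjusted edgeR p under 0.05, against 12.1% of all tested genes. This was Nos2, with 0.17, 0.48 and 0.19 CPM in low-Mn and 0.75, 1.09 and 0.60 CPM in normal-Mn cerebella (log2 fold change -1.56, SE 0.547, adjusted p = 0.235 with edgeR). Nos2 cleared the count filter through its normal-Mn libraries alone, and its values lay near that floor. Nothing is therefore read from its difference.

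Immediate early genes, which neural activity and handling induce within minutes, varied widely between mice. Of 20 immediate early genes 17 were tested, 16 had positive log2 fold changes with a median of 0.31 over the 17, and 0 were called by edgeR or limma-voom, with 10 at an unadjusted edgeR p under 0.05, against 12.1% of all tested genes. DESeq2 called 0 and gave an adjusted p to only 2. In 5 of the 17 every low-Mn library was above every normal-Mn library, against 8.79% of all tested genes, and in 1 every low-Mn library was below, against 8.32%. Nr4a3, an orphan nuclear receptor, had 9.07, 13.2 and 12.3 CPM in low-Mn and 8.19, 6.71 and 6.61 CPM in normal-Mn cerebella (log2 fold change 0.68, adjusted p = 0.051 with edgeR). Npas4, a transcription factor of active neurons, had 3.08, 5.91 and 2.16 CPM in low-Mn and 1.498, 0.57 and 1.73 CPM in normal-Mn cerebella (log2 fold change 1.55, adjusted p = 0.076 with edgeR). In both genes the diets did not overlap. Fos had 14.1, 24.2 and 8.02 CPM in low-Mn and 10.7, 4.09 and 5.53 CPM in normal-Mn cerebella (log2 fold change 1.17, adjusted p = 0.087 with edgeR). Its diets overlapped, with low-Mn replicate 2 the highest and low-Mn replicate 3 below normal-Mn replicate 1. The median over these 17 genes was 0.25, 0.49 and 0.12 in low-Mn replicates 1, 2 and 3, and 0.17, -0.02 and -0.10 in normal-Mn replicates 1, 2 and 3, whereas the target genes were highest in low-Mn replicate 1. The part of these genes in the members' values was not tested.

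**Figure D4:**
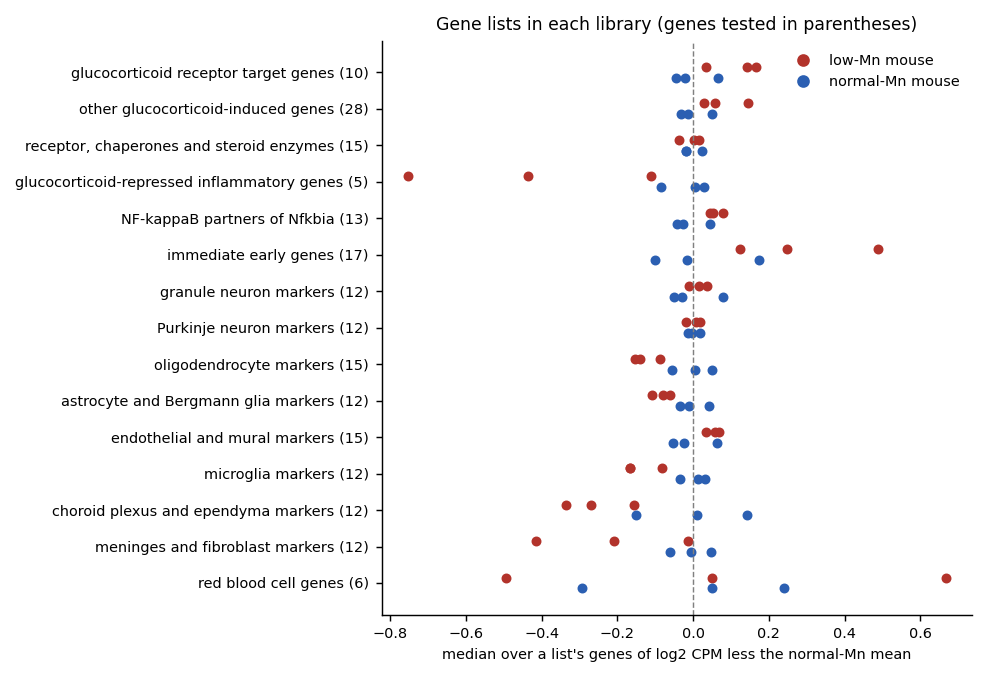
Median over each gene list of log2 CPM less the normal-Mn mean (horizontal axis), with 1 red point per low-Mn mouse and 1 blue point per normal-Mn mouse and the number of tested genes in parentheses. The target genes lie at 0.17, 0.14 and 0.03 in low-Mn mice, and the immediate early genes spread more widely, from 0.12 to 0.49 in low-Mn mice.

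Levels of markers of several other cell types are given beside the members, and their sums were not tested. The summed level of 15 oligodendrocyte markers was 7331 to 7644 CPM in low-Mn and 7833 to 8677 CPM in normal-Mn libraries, and Gjc3 was called lower by edgeR. For 12 choroid plexus and ependyma markers it was 2298 to 2832 CPM in low-Mn and 2646 to 3202 CPM in normal-Mn libraries. These sums overlapped between the diets and were mostly Ttr, with 2010 to 2514 CPM (low-Mn) and 2296 to 2780 CPM (normal-Mn). Of the 12 markers 11 were lower and 1 higher on the low-Mn diet, with Kl, Mfrp and Sostdc1 called lower. In 7 every low-Mn library was below every normal-Mn library, against 8.32% of all tested genes. The exons of Mfrp overlapped other genes over 37.91% of their length, and 33.51% of its stretches of 50 bases occurred in another gene. For 12 meningeal and fibroblast markers the summed level was 349 to 416 CPM in low-Mn and 431 to 488 CPM in normal-Mn libraries. Fn1 and Igf2 were called lower. Igf2, the largest of the 12, had 156 to 165 CPM (low-Mn) and 173 to 212 CPM (normal-Mn). Its exons overlapped other genes over 64.55% of their length, and 62.08% of its stretches of 50 bases occurred in another gene. In 6 of the 12 every low-Mn library was below every normal-Mn library, against 8.32% of all tested genes, and the others overlapped. The astrocyte sums were 5056 to 5208 CPM (low-Mn) and 5372 to 5576 CPM (normal-Mn), and those of microglia 172 to 182 CPM (low-Mn) and 192 to 199 CPM (normal-Mn). By edgeR 0 markers were called in either list, against 0.595% of all tested genes. Of the 12 astrocyte markers DESeq2 called 2, against 1.92% of 7144 genes, and limma-voom 1, against 63 of 16123. Both called 0 microglia markers, and DESeq2 gave an adjusted p to only 2 of those. Endothelial and mural markers, whose cells also respond to glucocorticoids, had sums of 493 to 522 CPM (low-Mn) and 484 to 516 CPM (normal-Mn). Red blood cell genes had sums of 331 to 764 CPM (low-Mn) and 389.9 to 558 CPM (normal-Mn), highest in low-Mn replicate 1. No list of cell type markers held a gene at 0 in all 6 libraries. The part of these cell types in the members' values was not tested.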

How the data were processed

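The authors made libraries from polyadenylated RNA and mapped reads with STAR to mm10. FastQC, RSEM and DESeq2 appear in the submitters' processing notes. Their versions are not in the sources used here. RSEM estimates counts per gene. Its expected counts were deposited by the authors without normalization and were rounded. Symbols, positions and exon lengths came from GENCODE M21. The 92 spike-in entries were 0 and were left out. The low-Mn columns are named by number alone, and in a check of 137 genes all 6 libraries matched their own column best.

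Genes were kept by filterByExpr of edgeR 4.0.16 (minimum count 10, minimum total 15), scaled by TMM and tested with glmQLFit and glmQLFTest, in R 4.3.3, and p-values were adjusted by Benjamini-Hochberg across all 16123 (threshold 0.05). Every adjusted p printed is from this test. DESeq2 1.42.0 and limma-voom (limma 3.58.1) were alternatives, beside other scalings, filters, a replicate block and each library left out. No replicate pair agreed within sampling noise.

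The members and gene lists were chosen with earlier results of these data known, so an excess of called or separate genes in a list is not support for it. All 10 members are named, and of other lists the genes that passed, with up to 3 of smallest p, Nr3c1 and Nr3c2. Dusp1, Cebpd, Angptl4, Anxa1, Mt1, Mt2 and Sgf29 were named after their values were seen. One gene that the rule would name is not reported here.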

Additional observations from a re-analysis of the deposited data

How the results depend on the processing

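Ddit4 was the only member called by edgeR and passed in all 13 alternatives run. All 130 values of the members' log2 fold changes over those alternatives moved by less than the within-diet SD, and 1 changed sign, Plin4, at -0.13 without low-Mn replicate 2. The number of members called was 2 with DESeq2 (Ddit4 and Klf9), 4 without a filter on low counts (Ddit4, Klf9, Nfkbia and Zbtb16) and 1 to 2 with any 1 library left out, where Nfkbia was added without normal-Mn replicate 2. The genes called over the whole table were 63 with limma-voom, 424 without a filter and 37 to 93 with any 1 library left out, against 96. The omission of low-Mn replicate 1 gave 47, of low-Mn replicate 2 gave 37 and of normal-Mn replicate 2 gave 45. Upper quartile scaling called 53 higher and 37 lower, against 67 and 29, and no filter 218 higher and 206 lower. Of the other glucocorticoid-induced genes 5 of 24 were called with a mean of at least 100 counts, against 106 of all 11685 genes. Without a filter 6 of 31 were called, against 424 of all 26954 genes. With any 1 library left out 3 to 4 were called. Among all 16123 tested genes, the median rank of the members' spread lay between 56.4 and 66.1 with any 1 library left out. The value with all libraries was 59.9, and this alternative was chosen after seeing the data. The cause of these shifts was not tested.

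Replicate numbers are shared by the diets but nothing ties them to a litter or batch. Same-numbered libraries had correlations of their deviations of 0.03, -0.02 and 0.04, so they were not treated as pairs. With the replicate block 128 genes were called, 3 of them members (Ddit4, Klf9 and Zbtb16) and 5 other glucocorticoid-induced genes. Depth limits the least counted members most: Sult1a1, Plin4 and Pdk4 had 100 to 228 counts per library.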
